A study of Penicillium oxalicum with 18 samples.

Results

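Growth on N-acetylglucosamine (GlcNAc) was the condition in which Penicillium oxalicum with and without the vib1 gene was compared, using 6 of the 18 libraries of the series. The members were taken from the sample titles: 3 libraries of the vib1 deletion strain and 3 of the wild-type strain 114-2, all from mycelium kept for 24 h in modified Mendal's medium containing 2% GlcNAc. Mycelium of both strains came from a 24 h preculture on 2% glucose. The other 12 libraries are the same strains, 3 libraries each, after 24 h on 2% glucose or on 1% bran plus 1% microcrystalline cellulose. The labels do not say how many deletion clones were used, or whether replicates were separate cultures. The p-values hence rest on a spread between samples that may be technical only.

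Vib1 belongs to the fungal transcription factors with an Ndt80-type DNA-binding domain. In Neurospora crassa it is known for its part in cell death after fusion of incompatible hyphae and in the production of secreted enzymes. GlcNAc is the monomer of chitin, a main polymer of the fungal cell wall. Fungi take it up through membrane transporters and convert it by phosphorylation, deacetylation and deamination into fructose 6-phosphate, and in several species it also acts as a signal in development. In Trichoderma reesei another member of the Ndt80 family, RON1, is needed for the use of GlcNAc.

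The measured values are FPKM, an abundance corrected for gene length and library size, for 9176 gene models. The table gives IDs and no gene names, and 0 of these IDs matched the 9964 entries of the reference gene table, so genes appear here by ID and none is given a function. The vib1 gene itself could not be looked up, and the strain labels have no check from the deleted gene. Summed FPKM were between 1079700 and 1119470 in the wild-type GlcNAc libraries and between 921337 and 945944 in the deletion ones. Read depth is unknown. In bulk mycelium, fewer cells expressing a gene and less of its RNA per cell cannot be told apart. Spearman correlations between replicates were 0.990 to 0.992 in wild type and 0.988 in each pair of the deletion strain, against 0.809 to 0.816 between libraries of opposite strains.

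Loss of vib1 was accompanied by differences across most of the measured transcriptome in GlcNAc. Of 8455 gene models tested, 6302 (74.5%) differed at an adjusted p under 0.05 (limma on log2(FPKM + 1)), 3789 (44.8%) higher and 2513 (29.7%) lower in the deletion strain. By at least 1 log2 unit, 1691 (20%) were higher and 1259 (14.9%) lower. The balance turned with the size of the difference. At 3 log2 units or more, 118 gene models (1.40%) were higher and 258 (3.05%) lower, and at 5 log2 units or more 24 (0.284%) were higher and 66 (0.781%) lower. Over all gene models the median difference was 0.20 log2 units. The split at 1 log2 unit depended on scaling: median-ratio rescaling gave 1198 higher and 1588 lower, while with each library brought to one total 2227 were higher and 1007 lower. The excess of lower gene models at 3 log2 units was present under all of these, with 98 higher and 295 lower after median-ratio rescaling and 146 higher and 230 lower after scaling to the same total.

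**Figure D1:**
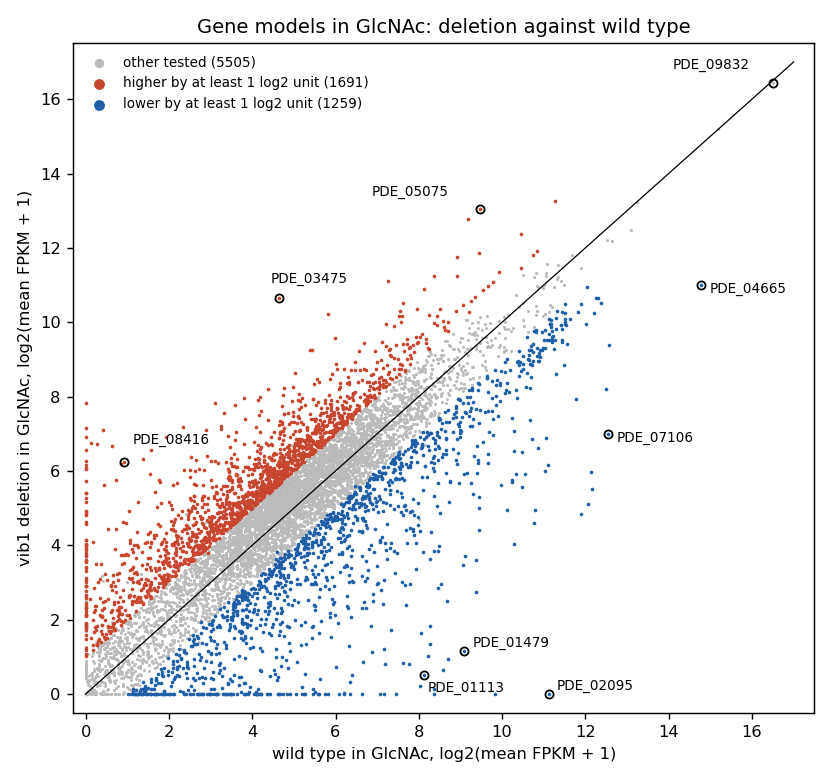
Mean FPKM of each tested gene model in the wild type (x axis) and without vib1 (y axis) in GlcNAc, as log2(mean FPKM + 1), with the line of equal level. The 1691 gene models called higher by at least 1 log2 unit are red and the 1259 called lower are blue. The lower ones reach further from the line. Points with a y value of 0 are listed at 0 without vib1, and points with an x value of 0 in the wild type.

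The largest log2 differences were taken among gene models above 0 in all 6 libraries. PDE_01479 stood at 496, 526 and 608 FPKM in the wild type and at 1.07, 1.3 and 1.32 FPKM without vib1. The strains did not overlap, and the mean was 442 times lower without vib1 (log2 difference −7.93 ± 0.768, SE; limma adjusted p = 2.82e-07). PDE_01113 stood at 294, 295 and 240 FPKM in the wild type and at 0.45, 0.56 and 0.24 FPKM without vib1 (−7.61 ± 0.881, adjusted p = 1.88e-06). All 3 wild-type libraries were again far above all 3 deletion libraries.

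In the other direction, PDE_03475 stood at 22.7, 20.03 and 29.7 FPKM in the wild type and at 1954, 1773 and 1122 FPKM without vib1. Its mean was 66.9 times higher without vib1 (5.99 ± 0.817 log2 units, limma adjusted p = 1.03e-05), and it was the 46th most abundant gene model there against the 4440th in wild type. PDE_08416 stood at 1.5, 0.21 and 0.97 FPKM in the wild type and at 71.5, 68.7 and 83.6 FPKM without vib1 (5.38 ± 0.243, adjusted p = 4.78e-11). Neither pair of groups overlapped. The strain difference in GlcNAc of PDE_03475 was opposite to those in glucose (−2.35 log2 units, adjusted p = 0.0208) and in bran plus cellulose (−2.88, adjusted p = 0.0181). In the last medium its wild-type values of 7.04, 5.28 and 143 FPKM rest on replicate 3.

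**Figure D2:**
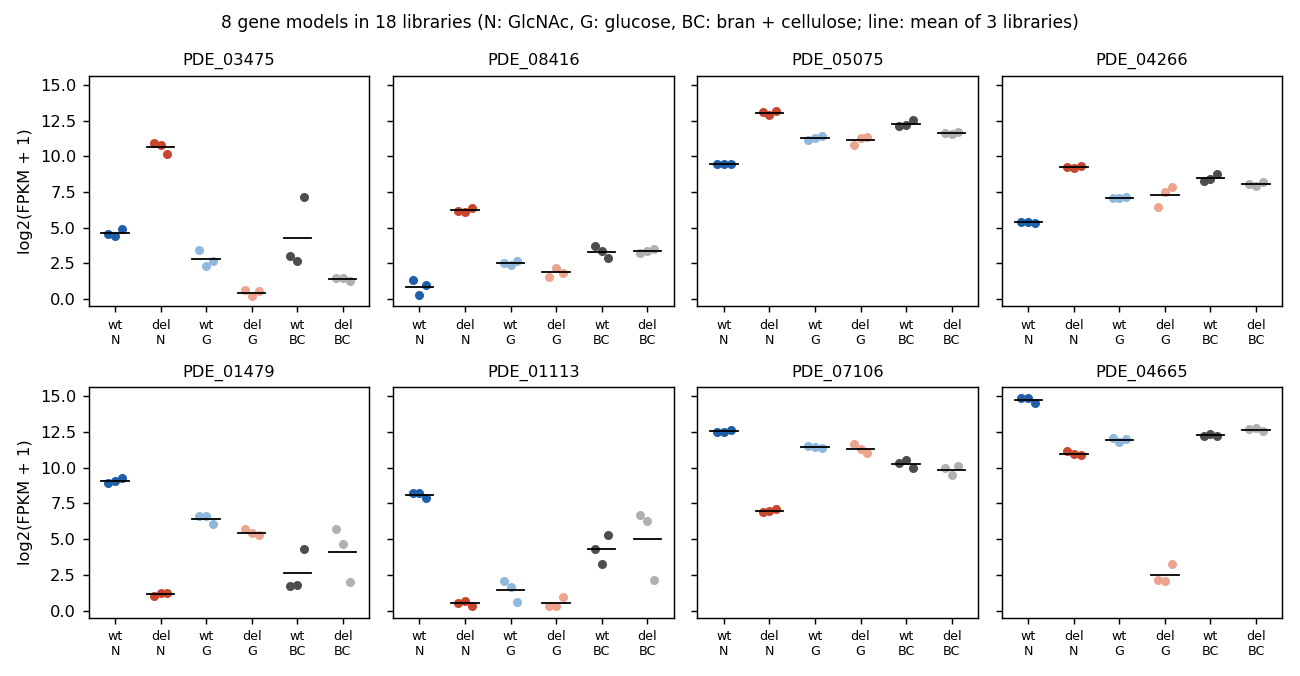
Level of 8 gene models in each of the 18 libraries, as log2(FPKM + 1) on the y axis, by strain (wt, wild type; del, vib1 deletion) and medium; points are libraries and lines are means of 3. The upper row holds gene models higher without vib1 in GlcNAc and the lower row gene models lower without vib1, and in each panel the wt and del GlcNAc libraries do not overlap.

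In mean FPKM, the largest loss was that of PDE_04665. It ranked 3rd among the gene models of wild type in GlcNAc, at 30372, 29918 and 24053 FPKM, and fell to 2307, 1972 and 1858 FPKM without vib1. That is 2.55% of the summed FPKM in the wild type and 0.219% in the deletion strain (log2 difference −3.78 ± 0.235, SE; limma adjusted p = 1.52e-09). PDE_07106 stood at 5828, 5828 and 6384 FPKM in the wild type and at 118, 124 and 135 FPKM without vib1 (−5.57 ± 0.171, adjusted p = 9.13e-13). It had ranked 8th in wild type and ranked 1324th in the deletion strain.

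The largest gain was that of PDE_05075, at 716, 687 and 710 FPKM in the wild type and 8646, 7654 and 9136 FPKM without vib1 (3.58 ± 0.135 log2 units, limma adjusted p = 7.64e-12). PDE_09166 followed, at 2331, 2517 and 2596 FPKM in the wild type and 9676, 10320 and 9236 FPKM without vib1 (1.97 ± 0.118, adjusted p = 9.29e-10). They became the 5th and 3rd most abundant gene models of the deletion strain. The top of the list was the same in both strains: PDE_09832 held 8.44% of the summed FPKM in the wild type and 9.42% without vib1, and PDE_09831 held 3.40% and 4.04%. Neither difference was called (log2 differences −0.08 ± 0.351 and 0.01 ± 0.304, adjusted p = 0.851 and 0.977). These 2 were named as the most abundant gene models with an uncalled difference of under 0.25 log2 units in GlcNAc. In glucose they were far lower without vib1: mean FPKM went from 60401 to 1672 for PDE_09832 and from 25432 to 779 for PDE_09831. The deletion libraries spread widely there, at 651, 1351 and 3015 FPKM for PDE_09832, and the SEs pool the spread of all groups.

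Below these leading transcripts the deletion strain's summed FPKM was spread over more gene models. Shares and ranks compare levels between genes, so they depend on the correction for gene length. In wild type 167, 172 and 178 gene models held 50% of the summed FPKM, and in the deletion strain 282, 275 and 312 did. The groups did not overlap (exact two-sided permutation test over 3 against 3 libraries, p = 0.1, the smallest this design can give). The 100 most abundant gene models of each library held 40.4 ± 0.643% (SD, n = 3) of the sum in wild type and 35.9 ± 1.00% without vib1, again without overlap (exact permutation p = 0.1). The 10 most abundant held 18.8 ± 0.728% and 19.4 ± 0.925%, and here the libraries overlapped (exact permutation p = 0.5). The wild type in GlcNAc had the lowest number of gene models for 50% of the sum of all 6 groups. In glucose the number was also higher without vib1, at 213, 221 and 229 in the wild type and 319, 301 and 260 in the deletion libraries. In bran plus cellulose it was lower without vib1, at 245, 241 and 246 in the wild type and 225, 219 and 231 in the deletion libraries. Neither medium's groups overlapped.

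**Figure D3:**
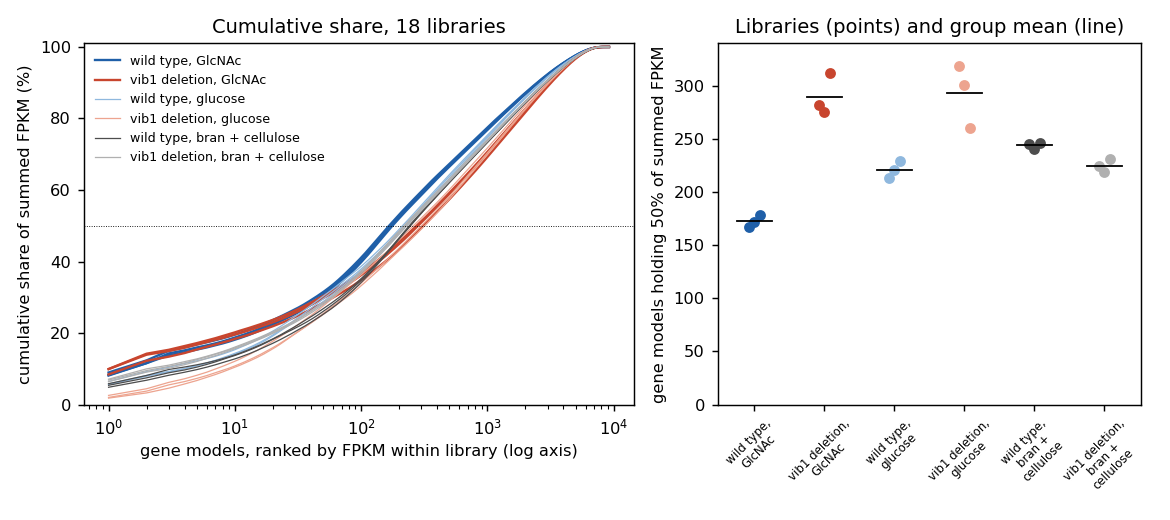
Left, cumulative share of summed FPKM (y axis, %) against gene models ranked by FPKM within each of the 18 libraries (x axis, log scale); right, the number of gene models that hold 50% of the sum, with libraries as points and group means as lines. Wild type in GlcNAc needs 167 to 178 gene models and the deletion strain in GlcNAc 275 to 312.

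Among abundant gene models the lower ones outnumbered the higher ones. When gene models were classed by their mean log2 level in the 12 libraries of the other media, which lie outside the strain comparison in GlcNAc, 575 were of at least 255 FPKM. Of these, 207 (36.0%) were lower and 98 (17.0%) higher by at least 1 log2 unit, beside 14.9% and 20% of all gene models tested. Their median strain difference was −0.31 log2 units, against 0.20 for all tested and 0.31 for the 3346 gene models of 15 to 63 FPKM. In glucose the median of the abundant class was −0.07, against 0.18 for all tested. In bran plus cellulose it was −0.01, against 0.01 for all tested. After median-ratio rescaling the class median in GlcNAc was −0.56, against −0.0031 for all tested. With equal totals it was −0.07, against 0.42 for all tested. Of the 100 most abundant gene models of the wild type in GlcNAc, 47 were also among the 100 most abundant without vib1. These classes were chosen after the values were seen.

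**Figure D4:**
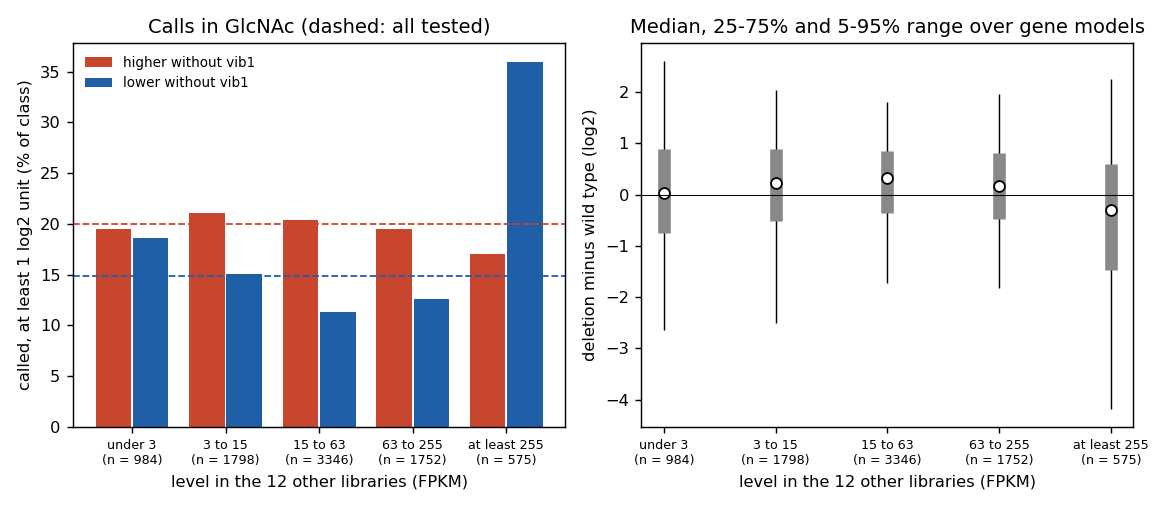
Left, share of gene models called higher (red) or lower (blue) by at least 1 log2 unit in GlcNAc (y axis, % of class) by level in the 12 libraries of the other media (x axis), with the shares over all tested as dashed lines; right, the log2 strain difference of each class as median (circle), 25 to 75% range (grey) and 5 to 95% range (line) over gene models. In the class of at least 255 FPKM, 36.0% were lower and 17.0% higher, and its median lay at −0.31.

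Some transcripts were listed at 0 on one side. In all, 41 gene models above 10 FPKM in the 3 wild-type GlcNAc libraries were listed at 0 in the 3 deletion libraries, and 25 showed the reverse. In GlcNAc, 45 of 2209 zeros in wild type and 90 of 2396 in the deletion strain stood beside a replicate above 10 FPKM. A listed 0 can therefore be a failed estimate, and no fold is given. Many of these gene models were measured in the other media. Of the 41, 4 were under 1 FPKM in all 12 libraries of those media, while 16 were above 10 FPKM in all 3 deletion libraries in bran plus cellulose and 11 in all 3 deletion libraries in glucose. PDE_02095, listed at 0 without vib1 in GlcNAc, stood at 379, 319 and 341 FPKM without vib1 in glucose and at 401, 520 and 944 FPKM in bran plus cellulose. PDE_06443, also listed at 0 there, stood at 259, 162 and 68.1 FPKM and at 167, 63.7 and 77.2 FPKM in these media. Conversely PDE_08440, listed at 0 in wild type in GlcNAc, stood at 22.6, 40.0 and 50.5 FPKM in the wild type on glucose. PDE_04964, listed at 0 there as well, stood at 73.7, 75.9 and 96.5 FPKM in the wild type on glucose.

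A handful of transcripts were measured in GlcNAc and in one strain. Above 10 FPKM in the 3 wild-type GlcNAc libraries and under 1 FPKM in the other 15 were PDE_08250, PDE_08258, PDE_09508 and PDE_02105, which are named because they are so few and were chosen after their values were seen. PDE_08250 stood at 177, 186 and 160 FPKM. PDE_08258 stood at 33.0, 32.0 and 31.7 FPKM, PDE_09508 at 19.9, 19.96 and 18.8 FPKM, and PDE_02105 at 11.4, 10.2 and 10.4 FPKM. The 3 counterparts in the deletion strain were PDE_05165 at 17.3, 21.6 and 46.6 FPKM, PDE_01741 at 14.7, 13.7 and 15.3 FPKM and PDE_05535 at 16.7, 13.7 and 11.5 FPKM. The replicates of each were alike except for replicate 3 of PDE_05165, which was more than 2 times the others.

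Some gene models changed in the same direction carried consecutive locus tag numbers. Runs also arise where many gene models are called, here 14.9% lower and 20% higher of the tested PDE ones. The number of runs to be had from these shares alone was not computed. Of 1254 lower by at least 1 log2 unit, 192 lay in 50 runs of 3 or more. Of 1685 higher ones, 267 lay in 80 such runs. Runs of 5 or more numbered 4 for lower and 6 for higher gene models, and the longest were of lower ones. The longest run, PDE_00789 to PDE_00806, held 18 gene models without a gap, each lower by at least 1 log2 unit in GlcNAc. Their values ranged from 50.3 to 1423 FPKM in the wild-type libraries and from 6.60 to 182 FPKM in the deletion libraries. The summed FPKM of the run was 7359, 7089 and 6854 in wild type and 1112, 1096 and 1127 without vib1. Strain differences ran from −1.40 to −3.96 log2 units, with a median of −2.35 and adjusted p of at most 1.5e-05 (limma). The most abundant member, PDE_00806, stood at 1417, 1411 and 1423 FPKM in the wild type and at 95.7, 89.8 and 84.7 FPKM without vib1. The edges of the run were not sharp. All 3 gene models on either side were called lower too, and 3 of these 6 by at least 1 log2 unit: PDE_00787 by −1.96, PDE_00808 by −1.05 and PDE_00809 by −1.04. PDE_00786, PDE_00788 and PDE_00807 differed by −0.38, −0.78 and −0.48 log2 units.

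The same 18 gene models behaved differently in each medium. In glucose all 18 were lower by at least 1 log2 unit (10.8% of all tested), with a median of −6.85, and their deletion values were between 0 and 5.34 FPKM. In bran plus cellulose all 18 were called higher without vib1 (13.2% of all tested), with a median of 1.22 log2 units. The interaction terms of limma called the GlcNAc difference less negative than that of glucose for 18 of 18 members (32.3% of all tested). They called it more negative than that of bran plus cellulose for 18 of 18 (26.7% of all tested). These calls were the same for all 18 without any single library of the groups compared, and under each of the rescalings tried.

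A second run, PDE_09228 to PDE_09241, held 14 gene models and was added after its values were seen. Its summed FPKM in GlcNAc was 2412, 2497 and 1911 in wild type and 17.9, 15.8 and 18.4 in the deletion strain. Strain differences ran from −3.31 to −8.21 log2 units with a median of −6.24 and adjusted p of at most 0.00264 (limma). PDE_09236, with the largest difference, stood at 355, 376 and 246 FPKM in the wild type and at 0.29, 0 and 0 FPKM without vib1. In glucose the run summed to 43607, 48906 and 48565 FPKM in wild type, and to 892, 21123 and 24034 in the deletion strain. There deletion replicate 1 stood far below its 2 companions. In bran plus cellulose it summed to 21856, 19845 and 11820 FPKM in the wild type and 23879, 23067 and 28470 without vib1.

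For this second run the strain difference in GlcNAc was called more negative than that in bran plus cellulose for 14 of 14 members (26.7% of all tested). Against glucose it was called more negative for 8 of 14 (27.0% of all tested). Without deletion replicate 1 in glucose all 14 were called, and without replicate 2 or 3 of that group 5 were. With a pseudocount of 5 it was 3, and with array weights 14. Lower gene models went on past the ends of this run. The adjoining PDE_09227 (−0.71 log2 units, limma adjusted p = 0.0751) and PDE_09242 (−3.29, adjusted p = 0.0636) were not called. Beyond them PDE_09225 (−2.97, adjusted p = 0.0243), PDE_09243 (−2.85, adjusted p = 1.06e-08) and PDE_09244 (−2.70, adjusted p = 1.52e-08) were called lower, and PDE_09226 was called higher by 0.90 log2 units.

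**Figure D5:**
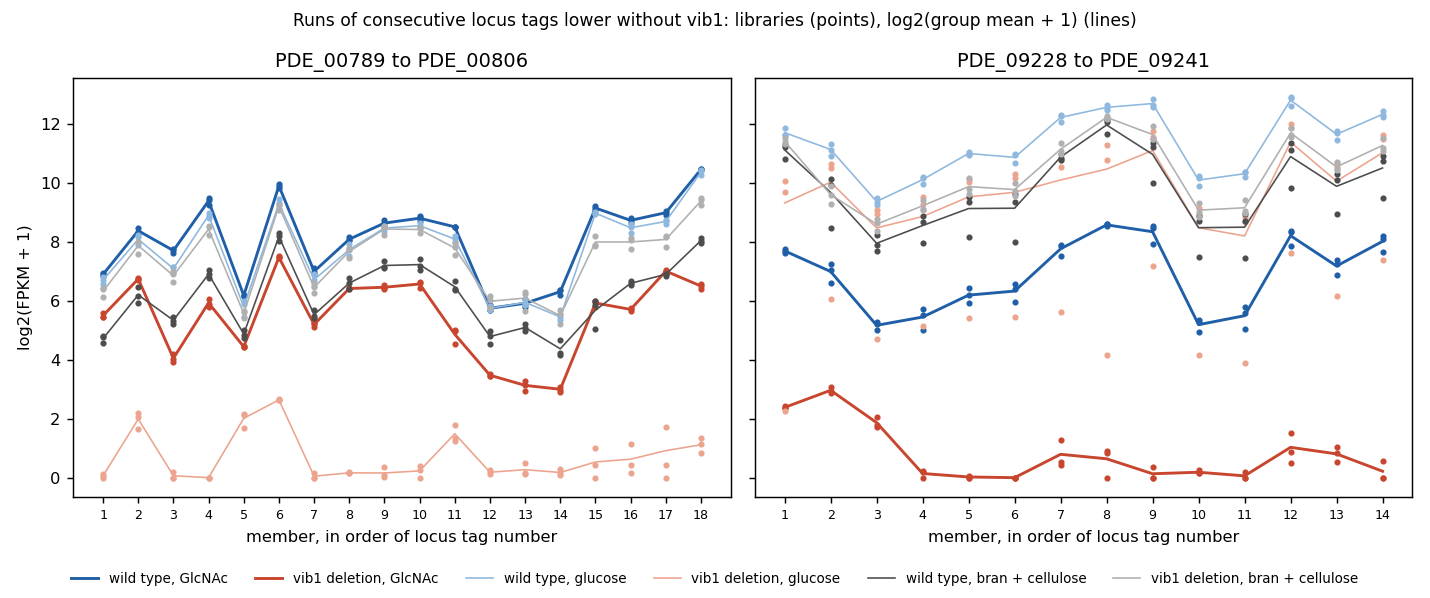
Level of the members of the runs PDE_00789 to PDE_00806 (left) and PDE_09228 to PDE_09241 (right), in order of locus tag number on the x axis and as log2(FPKM + 1) on the y axis; points are libraries and lines join log2(group mean + 1), by strain and medium. In GlcNAc the deletion strain lies below wild type for every member, while in bran plus cellulose the deletion means lie above those of the wild type, except for 1 member of the second run.

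The longest runs of higher gene models were shorter, at 6 long, and there were 3 of this length: PDE_02787 to PDE_02792, PDE_04862 to PDE_04867 and PDE_07342 to PDE_07347. After median-ratio rescaling, and with a pseudocount of 5, only the first of them kept this length. Its members summed to 79.5, 80.0 and 80.7 FPKM in the wild type and 392, 373 and 392 FPKM without vib1 in GlcNAc. PDE_02787 stood at 0, 2.43 and 0 FPKM in the wild type and at 88.8, 65.3 and 63.03 FPKM without vib1. The strain difference in GlcNAc was called higher than in glucose (32.3% of all tested) and than in bran plus cellulose (40.3% of all tested) for 6 of 6 members. Against bran plus cellulose 5 of 6 were called when wild-type replicate 1 or 2 or deletion replicate 2 from bran plus cellulose was left out. The second run summed to 77.5, 80.6 and 73.2 FPKM in the wild type and 277, 273 and 275 without vib1. The third summed to 74.8, 75.8 and 73.8 FPKM and 217, 223 and 203 FPKM. In glucose 1 member of that run, PDE_07344, went from 56.9, 91.8 and 70.05 FPKM in the wild type to 5615, 5046 and 5931 FPKM without vib1. The other members did not exceed 39.9 FPKM without vib1 there, PDE_07345 was listed at 0, and the median glucose difference of the run was 0.66 log2 units.

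Single neighbours were set beside the share over all tested. Of 1029 tested gene models whose number follows that of a gene model lower by at least 1 log2 unit, 259 (25.2%) were themselves lower by that much, beside 14.9% of all 8427 tested PDE gene models. Leaving out the runs of 5 or more, the share was 221 of 988 (22.4%). For higher gene models it was 407 of 1437 (28.3%), beside 20%. Genome positions are not analysed here, and whether consecutive numbers are physical neighbours was not checked.

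How far the strain difference in GlcNAc was shared with the other media was read from separate libraries. Of the 258 gene models lower by at least 3 log2 units in GlcNAc, 140 (54.3%) were lower by at least 1 in glucose, where 10.8% of all tested were, and 19 were higher. In bran plus cellulose 31 of them (12%) were lower and 36 (14.0%) higher, beside 3.18% and 2.34% of all tested. Of the 118 gene models higher by at least 3 log2 units in GlcNAc, 60 (50.8%) were higher by at least 1 in glucose, where 12% of all tested were, and 6 were lower. In bran plus cellulose 7 of them were higher and 9 lower.

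Median levels show where these 2 groups stood elsewhere. The 258 lower gene models had a median of 82.9 FPKM in the wild type on GlcNAc, 45.9 in glucose and 37.1 in bran plus cellulose. Without vib1 they had 2.62, 10.8 and 40.2 FPKM. The 118 higher gene models had a median of 1.75 FPKM in the wild type on GlcNAc, 13.8 in glucose and 16.5 in bran plus cellulose, and without vib1 63.9, 41.0 and 15.01 FPKM. The GlcNAc values chose these groups and are a description; the other media's libraries took no part in that choice.

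Tested as a difference between media, the strain effect in GlcNAc differed from that in glucose for 5014 gene models (59.3% of those tested), 2483 (29.4%) of them by at least 1 log2 unit. It differed from that in bran plus cellulose for 5668 (67.0%), 3117 (36.9%) of them by at least 1 log2 unit. These comparisons share the GlcNAc libraries. The gene models furthest apart between the 2 sugars included PDE_02128, which in glucose went from 1532, 1372 and 1452 FPKM in wild type to 1.15, 1.09 and 2.71 without vib1. In GlcNAc it stood at 751, 720 and 589 FPKM in the wild type and 902, 920 and 921 FPKM without vib1. Its effects differed by 9.57 ± 0.254 log2 units (limma adjusted p = 2.18e-13). The GlcNAc difference alone (0.42, adjusted p = 0.0457) lost its call without any one of 5 of the 6 GlcNAc libraries, replicate 1 of wild type being the exception, with adjusted p of up to 0.171.

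PDE_04495, likewise, fell without vib1 from 1294 ± 134 to 0.493 ± 0.389 FPKM (SD, n = 3) in glucose, and in GlcNAc from 2230, 2104 and 1773 to 1270, 1099 and 1103 FPKM (effects apart by 8.98 ± 0.223 log2 units, limma adjusted p = 1.45e-13). Its difference in GlcNAc, −0.81 log2 units, was 0.075 after quantile normalization. The opposite pattern was that of PDE_06929. It stood at 9.78, 11.4 and 9.20 FPKM in the wild type and at 0.35, 0.20 and 0.42 FPKM without vib1 in GlcNAc, whereas in glucose it went from 7.86 ± 0.870 to 394 ± 76.6 FPKM. The effects differed by −8.53 ± 0.217 log2 units (adjusted p = 1.57e-13). PDE_03823 stood at 72.3, 73.0 and 84.3 FPKM in the wild type and at 3.22, 3.74 and 8.52 FPKM without vib1 in GlcNAc, and went from 88.5 ± 8.20 to 964 ± 117 FPKM in glucose (−7.18 ± 0.395, adjusted p = 1.04e-09). In each of these cases the libraries of the 2 strains did not overlap in either sugar.

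Against bran plus cellulose, the largest differences of effect included PDE_03475 (8.86 ± 1.16 log2 units, limma adjusted p = 9.92e-06), PDE_01479 (−9.45 ± 1.09, adjusted p = 2.83e-06) and PDE_01113 (−8.36 ± 1.246, adjusted p = 3.56e-05). In that medium the strains overlapped for PDE_01479, with 2.30, 2.39 and 18.9 FPKM in the wild type and 52.6, 24.0 and 2.91 FPKM without vib1. They also overlapped for PDE_01113, with 18.75, 8.40 and 38.8 FPKM in the wild type and 100.2, 76.4 and 3.48 FPKM without vib1. PDE_01884 stood at 8.98, 9.21 and 9.0 FPKM in the wild type and at 159, 187 and 218 FPKM without vib1 in GlcNAc. In bran plus cellulose it went the other way, from 55.1, 37.9 and 37.97 to 11.2, 7.31 and 12.4 FPKM (effects apart by 6.21 ± 0.261, adjusted p = 6.39e-11).

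A stricter group was changed in GlcNAc with no call in either other medium. It required a strain difference of at least 1 log2 unit in GlcNAc, no call in glucose or bran plus cellulose, and interaction terms of at least 1 log2 unit called in the same direction against both. It held 218 gene models higher and 218 lower without vib1. PDE_04266 is the first of the higher ones, at 41.4, 41.0 and 39.9 FPKM in the wild type and 594, 583 and 636 FPKM without vib1 (3.86 ± 0.236 log2 units, limma adjusted p = 1.31e-09). In glucose it stood at 137 ± 2.02 and 167 ± 72.7 FPKM in the 2 strains. In bran plus cellulose it stood at 313, 345 and 432 FPKM in the wild type. Without vib1 it was at 264, 245 and 291 FPKM there, without overlap (limma adjusted p = 0.191). PDE_00308 stood at 8.52, 4.57 and 6.58 FPKM in the wild type and at 81.9, 94.8 and 71.8 FPKM without vib1 (3.50 ± 0.277, adjusted p = 2.21e-08), and at most at 8.28 FPKM in any library of the other media. Its bran plus cellulose values were 7.69, 4.29 and 5.27 FPKM in the wild type. Without vib1 they were 3.74, 2.7 and 2.56 FPKM, again without overlap (limma adjusted p = 0.0626). The first 2 of the lower ones were PDE_01479 and PDE_01113, described above. PDE_01113 was low in both strains in glucose, at 3.26, 2.19 and 0.48 FPKM in the wild type and 0.25, 0.25 and 0.96 without vib1. A gene model this low in wild type has little room to be called lower there. The group was not filtered for level in the other media, so the missing call need not mean an absent effect. In glucose PDE_01479 stood at 96.7, 99.4 and 65.6 FPKM in the wild type and at 50.3, 42.7 and 37.4 FPKM without vib1. These groups did not overlap, though the difference of −0.975 ± 0.768 log2 units was not called (limma adjusted p = 0.284). Of the 1691 gene models higher by at least 1 log2 unit in GlcNAc, 69 (4.08%) were lower by as much in glucose, beside 10.8% of all tested. Of the 1259 lower ones, 99 (7.86%) were higher there, beside 12% of all tested.

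The study's title concerns cellulolytic genes, and the wild type's own response to bran plus cellulose gives a grouping that uses no GlcNAc library. Of the 535 gene models (6.33%) that the wild type had at least 1 log2 unit higher on bran plus cellulose than on glucose, 160 (29.9%) were higher and 133 (24.9%) lower without vib1 in GlcNAc, beside 20% and 14.9% of all tested. Their median strain difference in GlcNAc was 0.22 log2 units, against 0.20 for all tested. Of the 430 (5.09%) that it had lower by as much, 70 (16.3%) were higher and 182 (42.3%) lower, and their median was −0.67. Which of the raised gene models encode cellulases cannot be read from the table.

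Among the raised gene models, PDE_01268 stood at 4.77, 4.44 and 3.05 FPKM in the wild type and at 123, 151 and 158 FPKM without vib1 in GlcNAc (4.84 ± 0.143 log2 units, limma adjusted p = 6.33e-13). That is above its 68.2 ± 1.69 FPKM in wild type on bran plus cellulose. PDE_08879 stood at 7.45, 8.09 and 7.24 FPKM in the wild type and at 200, 219 and 262 FPKM without vib1 (4.72 ± 0.168, adjusted p = 4.09e-12). On bran plus cellulose wild type had 226 ± 39.0 FPKM of it. PDE_01114, whose number follows PDE_01113, was lower without vib1 in all media. It stood at 330, 344 and 244 FPKM in the wild type and at 1.86, 1.42 and 1.27 FPKM without vib1 in GlcNAc (−6.92 ± 0.151, adjusted p = 3.49e-14), and at −4.80 and −1.27 log2 units in glucose and bran plus cellulose.

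The table also holds 30 gene models with XLOC IDs, of which 28 were tested, 13 of them called higher and 8 lower in GlcNAc, beside 44.8% and 29.7% of all tested. XLOC_006004, chosen after its values were seen, stood at 653, 649 and 683 FPKM in the wild type and at 5.64, 6.43 and 5.19 FPKM without vib1 (−6.62 ± 0.645 log2 units, limma adjusted p = 3.01e-07). XLOC_004042, chosen likewise, stood at 8.18, 8.58 and 8.55 FPKM in the wild type and at 135, 151 and 155 FPKM without vib1 (3.97 ± 0.124, adjusted p = 1.08e-12).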

How the data were processed

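Per the labels' protocols, poly(A) RNA was bound on oligo(dT) beads and the cDNA was cut with NlaIII and MmeI, with Illumina sequencing of the tags. The authors deposited FPKM per gene model and library, per the file headers. No source used here names the aligner, quantifier, build or gene lengths. Tags come from few positions of a transcript, and a correction for length therefore bears on levels compared between genes. It cancels in the FPKM ratio of one gene between libraries, but enters log2(FPKM + 1), the filter and cut-offs in FPKM. Read counts are not given. In 100 low gene models, 83.4% of 1096 values lay within 0.1 of a whole gene-specific step, a share that includes the values setting the steps, and relative step sizes of the libraries ranged from 0.873 to 1.16. An even spread would put 20% of values within 0.1 of a step. The values setting the steps lie near a whole step by construction, so the shares cannot be compared. Depth in reads, counting intervals and detection limits were not derived from these steps and are not given.

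Values were analysed as log2(FPKM + 1), which understates differences of low genes. The 8455 gene models reaching 1 FPKM in 3 or more libraries entered the test and 721 did not. In limma 3.58.1 (R 4.3.3), 6 group means were estimated from the 18 libraries together, using eBayes with its trend and robust options and 12 residual degrees of freedom. The p-values are two-sided and were adjusted over all tested gene models (Benjamini-Hochberg). A group whose libraries are all at 0 has no spread, and p-values resting on it can be too small. A fold is the ratio of mean FPKM, and SDs are over 3 libraries. The fit was tested on simulated log2 values with normal noise around the group means, the form that the fit assumes. Such a check cannot speak to zeros, unknown depth, scaling or replicates that are technical only. Figures were drawn with matplotlib 3.10.9.

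Each description names at most 2 gene models higher and 2 lower without vib1, those with the largest log2 differences among called ones, with means of at least 10 FPKM and above 0 in all libraries compared. Other descriptions used the largest differences of mean FPKM, the highest minimum against a strain listed at 0, or the longest runs. The comparison, rules and groupings were chosen with earlier results of these data known. Gene lists by function were void, because no ID could be paired with a name.

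Results were recomputed with a pseudocount of 0.1 or 5, without a filter or with one at 10 FPKM, after median-ratio, quantile or equal-total scaling, with plain eBayes or array weights, on only the groups compared, with a block for replicate number, and without each library in turn.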

Additional observations from a re-analysis of the deposited data

Results flagged for a closer look

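The strain effect in GlcNAc was tested against the strain effect in the other media with interaction terms, and these results were picked out because the effects differed. Against glucose 5014 gene models were called and against bran plus cellulose 5668 were. Between the sugars, the effects (GlcNAc minus glucose, log2 units) differed by 9.57 for PDE_02128, 8.98 for PDE_04495, −8.53 for PDE_06929 and −7.18 for PDE_03823. Between GlcNAc and bran plus cellulose they differed by 8.86 for PDE_03475, 6.21 for PDE_01884, −9.45 for PDE_01479 and −8.36 for PDE_01113. The named ones were selected for their size, and no separate libraries test them. Groups of 3 libraries are too small for a search for outlying libraries, and none was made.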

How the results depend on the processing

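Counts of gene models called, and of those higher or lower by at least 1 log2 unit, stayed within 1.5 times the reported ones for the strain difference in GlcNAc and for both differences between media under every alternative run. For GlcNAc the calls numbered between 5647 (filter at 10 FPKM) and 6849 (array weights, whose estimate stopped before it had converged in these fits). Leaving out 1 library gave 6009 to 6093 calls, 1630 to 1714 higher and 1232 to 1261 lower by at least 1 log2 unit. For GlcNAc minus glucose it gave 4710 to 4973 calls, 1257 to 1318 higher and 1133 to 1254 lower, and for GlcNAc minus bran plus cellulose 5402 to 5759, 1763 to 1854 and 1261 to 1328. A block for the replicate number gave 6315 calls in place of 6302. The deviations of same-numbered GlcNAc libraries from their group means correlated at −0.106, −0.026 and −0.0637. Those of differently numbered ones correlated at −0.0559 to 0.119. Deviations about means of 3 libraries cannot settle whether the numbers pair the libraries. For the differences between media the block gave 5005 and 5639 calls.

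Without the most abundant gene model, the strain difference in the share of the 10 highest became −0.371 percentage points in place of 0.564, that of the 100 highest became −5.74, and that in gene models holding 50% of the sum became 173. Under quantile normalization, which gives all libraries one distribution by construction, the abundant class lay −0.0921 log2 units from all gene models in place of −0.513. Leaving out 1 library gave −0.521 to −0.472 for the class, 106 to 125 gene models for 50% of the sum, 0.158 to 1.07 points for the 10 highest and −4.94 to −3.96 for the 100 highest.

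Among named gene models, directions turned in small or uncalled differences. Quantile normalization gave −0.72 for PDE_09166 (GlcNAc minus glucose), 0.34 for PDE_02128 (GlcNAc minus bran plus cellulose) and 0.075 for PDE_04495 in GlcNAc, in place of a called −0.81. Equal totals gave 0.083 for PDE_02128 (GlcNAc minus bran plus cellulose) and 0.16 for PDE_09832 in GlcNAc. Median-ratio rescaling gave −0.24 for PDE_09831. Leaving out 1 GlcNAc library gave −0.13 to 0.0088 for PDE_09832 (highest without deletion replicate 3) and −0.038 to 0.067 for PDE_09831 (lowest without deletion replicate 2). The cause was not tested. Unknown depth limits what can be said of low and zero values.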
